A study of Homo sapiens with 12 samples.

Results

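The transcription factor NF-kB, the proteins that hold it in check and the inflammatory genes it switches on were followed in MDA-MB-231 cells, an established human triple-negative breast cancer (TNBC) line, after 36 h with 1 of 3 compounds. A list of 36 genes was drawn up by name: the 5 NF-kB subunits, 8 inhibitors and feedback proteins, 4 signaling proteins, 9 chemokines, 4 other secreted proteins and 6 surface proteins and enzymes. A gene was counted as measured where an array feature (a set of probes read as 1 value) carried its symbol and no other. This held for 34 of the 36 genes, among 22392 genes with a feature of their own and 53617 features in all. BIRC3, a ubiquitin ligase of the pathway, has no entry in the array annotation used here, and SOD2, the mitochondrial superoxide dismutase, lies on 2 features that it shares with a neighboring transcript, so neither has a value. TNF has 8 features, and the one with the highest mean over the arrays was used, as for any gene with more than 1.

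The arrays came from 3 samples given GM-4-53 at 5 µg/mL, 2 given paclitaxel at 1 µg/mL, 3 given GNE-140 at 50 µM and 4 untreated controls, all at 36 h. GM-4-53 is a compound studied as a cytostatic agent, paclitaxel is a taxane that stabilizes microtubules, and GNE-140 blocks both main forms of lactate dehydrogenase (LDHA and LDHB). All 3 compounds had been dissolved in DMSO while the controls had no treatment, so an effect of the solvent cannot be told apart from that of a compound. The doses differ between the compounds. All samples are of 1 cell line, and nothing states that replicates were separate cultures, so p-values measure the spread between arrays, which may be technical. Each value is a deposited log2 signal, a difference of 1 on this scale is a doubling, and the number of arrays limits the precision.

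NF-kB is a family of dimers built from NFKB1, NFKB2, REL, RELA and RELB. In resting cells the IkB proteins (NFKBIA, NFKBIB, NFKBIE) hold the dimers in the cytoplasm. Signals from TNF, IL1 or Toll-like receptors free them to enter the nucleus, where they switch on adhesion molecules, chemokines and cytokines together with the genes of their own inhibitors, so that NFKBIA and TNFAIP3 are both brakes on the pathway and targets of it. MDA-MB-231 cells are known for NF-kB activity without an added stimulus. RNA levels of these genes do not measure the location or activity of the factor itself.

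RefSeq promoter windows (250 bases before the start site to 50 after, build GRCh38.p14) were found for 32 of the 36 genes, all but CCL2, CCL5, NFKBIE and RELB. The kB consensus of 10 letters was matched on either strand in 15 of the 32 windows (46.9%), against 10.8% of all 27305 windows of that length. The 9-letter motif GGNNTTTCC, which lies inside many matches of the consensus, was found in 17 (53.1%), against 6.26% of all. At least 1 of the motifs was present in 7 of 7 chemokine windows, 4 of 7 of the inhibitors, 2 of 4 of the subunits, 3 of 6 of the surface proteins and enzymes, 1 of 4 of the other secreted proteins and 1 of 4 of the signaling proteins. The genes were listed as known targets, so these shares describe the list, and a match is not evidence of binding. The 6 stretches of 80 bases printed here belong to genes whose values are given for every array and show the matches (capitals) as they lie before the start site, 5′ to 3′ on the strand of the gene. They lie at chr4:102501274-102501353 (NFKB1, + strand), chr14:35404787-35404866 (NFKBIA, - strand), chr3:101827740-101827819 (NFKBIZ, + strand), chr6:137867168-137867247 (TNFAIP3, + strand), chr19:10270898-10270977 (ICAM1, + strand) and chr4:73740442-73740521 (CXCL8, + strand).
NFKB1: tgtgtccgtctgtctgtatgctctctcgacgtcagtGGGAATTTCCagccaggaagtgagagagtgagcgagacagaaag
NFKBIA: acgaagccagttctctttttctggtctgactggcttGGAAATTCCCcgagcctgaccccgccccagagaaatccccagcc
NFKBIZ: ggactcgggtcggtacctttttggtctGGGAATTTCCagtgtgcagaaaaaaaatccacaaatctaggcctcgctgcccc
TNFAIP3: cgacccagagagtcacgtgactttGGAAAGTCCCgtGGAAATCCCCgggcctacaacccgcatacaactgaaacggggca
ICAM1: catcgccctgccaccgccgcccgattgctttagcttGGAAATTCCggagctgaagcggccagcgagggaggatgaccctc
CXCL8: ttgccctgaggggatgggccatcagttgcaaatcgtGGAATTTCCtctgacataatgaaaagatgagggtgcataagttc

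Array medians ran from 2.64 to 2.82 on the log2 scale. They averaged 2.80 in the GNE-140 arrays and 2.69 in the controls, so that centring each array on its median lowers every GNE-140 value by 0.11 relative to the controls. Control replicate 4 stood apart: over all features its mean correlation was 0.978 with the GNE-140 arrays and 0.951 with the other 3 controls. Whether it shares a batch with those arrays or carries a wrong label cannot be told apart here. Each value against the controls, those of GNE-140 above all, is to be read with that doubt. Control replicate 3 also had a higher mean correlation with the GNE-140 arrays (0.965) than control replicates 1 and 2 had (0.957 each). VIM, CD44, KRT18, KRT8 and PLAU, genes known to be high in this line, lay above the array median on all 12 arrays, and SPARC on 7. Of genes said to be low in it, PGR was below the median on all 12 arrays and ESR1 above it on 2, whereas EPCAM, CDH1 and GATA3 were above it on all 12. ERBB2 was not measured. The leukocyte markers PTPRC, CD3E and LYZ were below the median on all 12 arrays, CSF1R was above it on 5, CD14 on 6 and ITGAM on 12. The mean log2 level of these 6 leukocyte genes ran from 1.93 to 2.11 under GM-4-53, 2.13 to 2.20 under paclitaxel, 2.37 to 2.40 under GNE-140 and 2.18 to 2.41 in controls, lower than all controls on each GM-4-53 array, as were NFKBIA and ICAM1. For 2 endothelial genes it ran from 2.47 to 2.70, 2.45 to 2.56, 2.96 to 3.13 and 2.42 to 3.14 in that order, and for 3 fibroblast genes from 2.62 to 2.72, 2.72 to 2.79, 2.91 to 2.99 and 2.74 to 2.96. The part of these markers in the results was not tested. In bulk RNA, fewer cells that express a gene and less RNA per cell cannot be told apart.

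Against the untreated controls, GM-4-53 lowered 5 of the 34 measured genes and raised 1 at an adjusted p under 0.05. Those that fell were the IkB gene NFKBIA, the nuclear IkB relatives NFKBIZ and BCL3, the kinase gene IKBKE and the adhesion molecule gene ICAM1, and the one that rose was TNFAIP3, whose product A20 ends NF-kB signaling. GNE-140 raised NFKBIA, NFKBIE and TNFAIP3 and lowered NFKBIZ. Paclitaxel lowered NFKBIZ, and no other listed gene passed the test. Over all 53617 features, 1.02% fell and 0.815% rose under GM-4-53, 0.843% fell and 0.414% rose under GNE-140, and 0.157% fell and 0.5% rose under paclitaxel. The 3 comparisons share the same 4 control arrays. Across the 34 genes the median log2 fold change was -0.35 under GM-4-53, -0.30 under paclitaxel and 0.11 under GNE-140, the last being the size of the shift in the array medians, and the median of all features was 0.01, 0.00 and 0.00. In number, 28 of 34 genes were below the control mean with GM-4-53, 29 of 34 with paclitaxel and 12 of 34 with GNE-140. Of the 57 other pathway genes described further on, 36, 38 and 24 were below it in that order. The genes share the same control arrays, so these counts are not independent, and they were not tested.

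**Figure D1:**
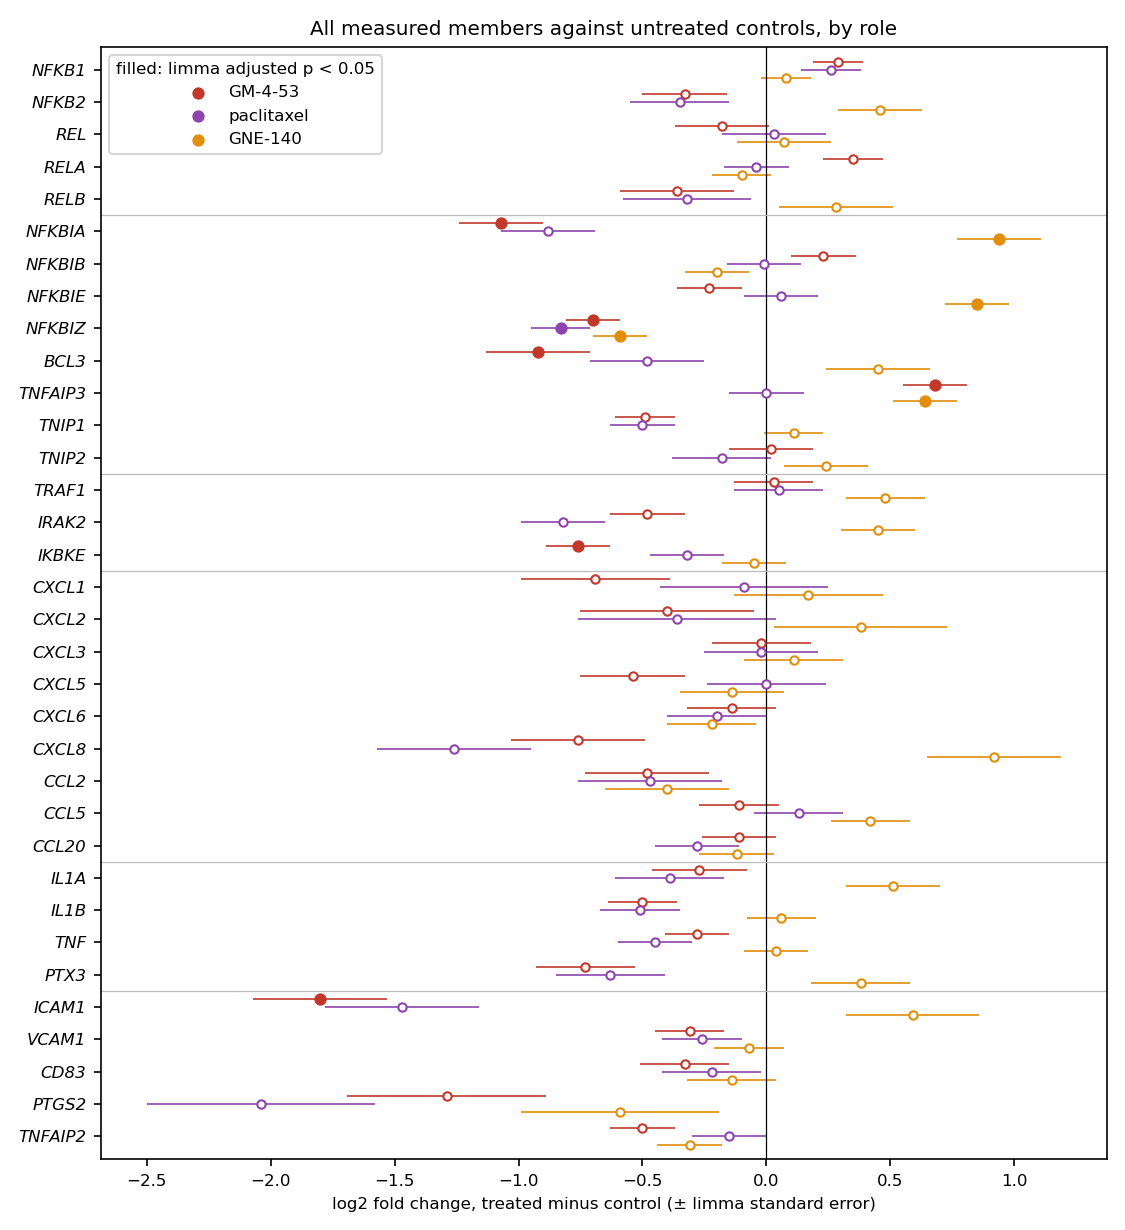
Log2 fold change against the untreated controls (x axis, point ± limma SE) of the 34 measured genes, grouped by role from the subunits (top) to the surface proteins and enzymes, for GM-4-53, paclitaxel and GNE-140. Filled points passed an adjusted p under 0.05: 6 of the GM-4-53 points, 1 of the paclitaxel points and 4 of the GNE-140 points, and NFKBIA lies at -1.07 with GM-4-53 and at 0.94 with GNE-140.

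Among the inhibitors, NFKBIA, which encodes the main IkB protein, gave log2 signals of 5.51, 5.32 and 5.50 with GM-4-53, 5.75 and 5.51 with paclitaxel, 7.44, 7.43 and 7.51 with GNE-140 and 6.85, 6.77, 6.21 and 6.23 in controls. All 5 arrays of the first 2 compounds thus lay below the 4 controls and all 3 GNE-140 arrays above them. The log2 fold change was -1.07 with GM-4-53 (standard error, SE, 0.17, limma adjusted p = 0.0103), a 2.10-fold lower level, and 0.94 with GNE-140 (SE 0.17, adjusted p = 0.0235), a 1.92-fold higher one. The GNE-140 call was lost after median centring (0.83, adjusted p = 0.0603) and with a term shared by control replicate 4 and the GNE-140 arrays (1.23, adjusted p = 0.0683). With paclitaxel it was -0.88 (SE 0.19, adjusted p = 0.0683), past the threshold after quantile normalization (adjusted p = 0.0255). NFKBIE, which encodes another cytoplasmic IkB, read 5.62, 5.85 and 5.69 with GNE-140, above all 4 controls at 4.96, 5.02, 4.75 and 4.77, a log2 fold change of 0.85 (SE 0.13, adjusted p = 0.0125). Its log2 signals of 4.59, 4.82 and 4.54 with GM-4-53 and 5.10 and 4.77 with paclitaxel overlapped those of the controls. NFKBIB, the third of these IkB genes, ran from 4.88 to 5.32 with GM-4-53, 4.83 to 4.85 with paclitaxel, 4.58 to 4.73 with GNE-140 and 4.75 to 5.05 in controls, and passed the test in none of the 6 comparisons.

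NFKBIZ encodes a nuclear member of the IkB family that is induced by inflammatory signals and in turn helps to switch on a set of late targets. It was lower on every treated array: its log2 signals were 5.63, 5.85 and 5.67 with GM-4-53, 5.62 and 5.56 with paclitaxel, 5.91, 5.81 and 5.80 with GNE-140 and 6.38, 6.51, 6.49 and 6.32 in controls. It fell by 0.70 on the log2 scale with GM-4-53 (SE 0.11, adjusted p = 0.00916), by 0.83 with paclitaxel (SE 0.12, adjusted p = 0.0145) and by 0.59 with GNE-140 (SE 0.11, adjusted p = 0.0265). It was the only one of the 34 genes called in all 3 comparisons, which share their controls. BCL3, another nuclear member of that family and a partner of the p50 and p52 subunits, read 4.02, 3.59 and 4.21 with GM-4-53, below all 4 controls at 5.32, 5.01, 4.41 and 4.70, and fell by 0.92 (SE 0.21, adjusted p = 0.0464, and 0.0697 after median centring). Its values of 4.40 and 4.36 with paclitaxel lay just under the lowest control, and those of 5.29, 5.36 and 5.28 with GNE-140 near the highest.

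TNFAIP3 encodes A20, a ubiquitin-editing enzyme that shuts off signaling upstream of NF-kB. Its log2 signals were 5.38, 5.38 and 5.04 with GM-4-53 and 5.28, 5.21 and 5.20 with GNE-140, all above the controls at 4.61, 4.68, 4.73 and 4.32, whereas the paclitaxel arrays at 4.58 and 4.59 lay among them. It rose by 0.68 with GM-4-53 (SE 0.13, adjusted p = 0.0262) and by 0.64 with GNE-140 (SE 0.13, adjusted p = 0.0422), and neither rise passed the test after median centring (adjusted p = 0.0547 and 0.126). Under GM-4-53 it was thus opposite in sign to NFKBIA, although both are brakes on NF-kB that NF-kB induces. TNIP1, which encodes a partner of A20, read 5.52, 5.24 and 5.46 with GM-4-53 and 5.36 and 5.42 with paclitaxel, below the controls at 5.96, 5.82, 5.98 and 5.83, and 6.17, 5.93 and 5.93 with GNE-140. The differences of -0.49 with GM-4-53 (adjusted p = 0.065) and -0.50 with paclitaxel (adjusted p = 0.13) did not pass the test. TNIP2, a related partner, ran from 4.48 to 4.53 with GM-4-53, 4.13 to 4.50 with paclitaxel, 4.57 to 4.82 with GNE-140 and 4.16 to 4.79 in controls.

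**Figure D2:**
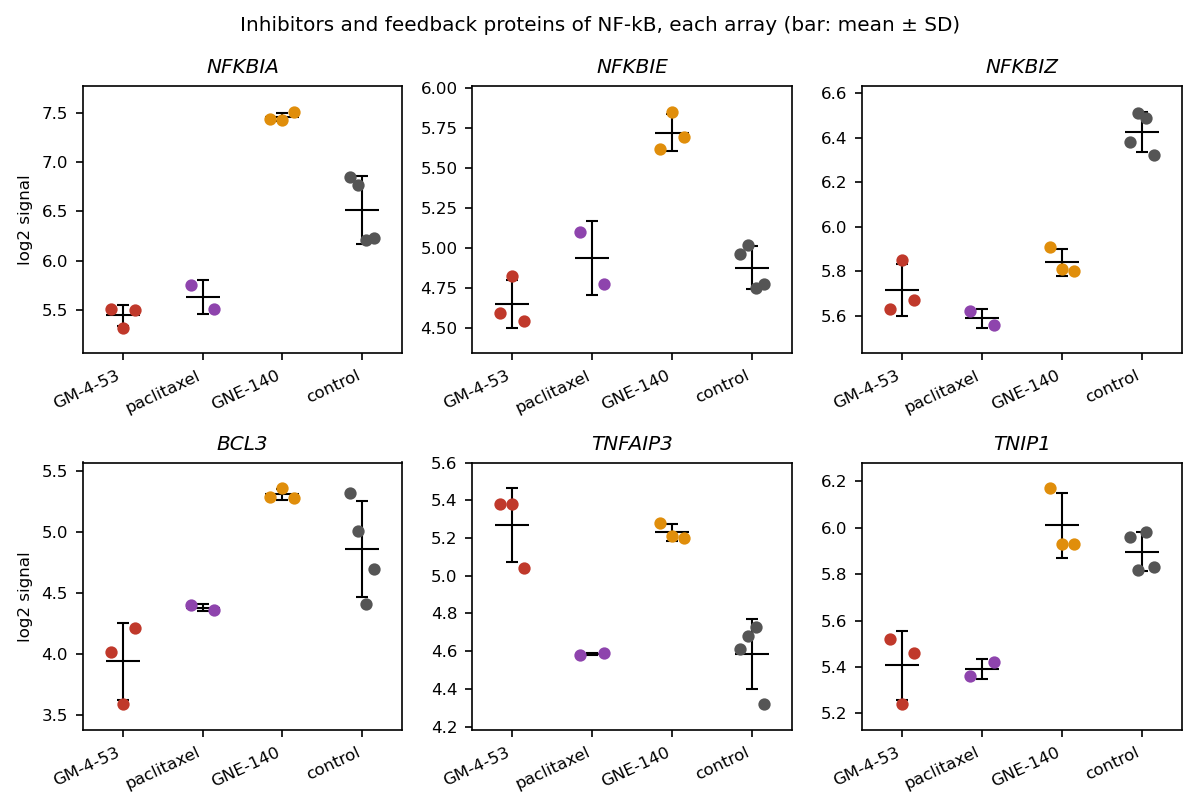
Log2 signal (y axis, each panel with its own range) of 6 inhibitor and feedback genes on each array of GM-4-53, paclitaxel, GNE-140 and untreated controls, with bars for the mean ± SD. NFKBIA is low with GM-4-53 and paclitaxel and high with GNE-140, NFKBIZ is below the controls with all 3 compounds, and TNFAIP3 is above them with GM-4-53 and GNE-140.

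Of the subunits, 0 of 5 were called against the controls with any of the 3 compounds, by limma or by the methods' t-test. At an unadjusted p under 0.05 there were 2 under GM-4-53, 1 under paclitaxel and 1 under GNE-140, all higher. The share of all features at that threshold is not given, so nothing is drawn from these counts. NFKB1, the gene of p105 and p50, read 5.93, 5.97 and 5.98 with GM-4-53 and 6.0 and 5.84 with paclitaxel, above the controls at 5.69, 5.70, 5.64 and 5.62, and 5.72, 5.67 and 5.83 with GNE-140. The differences from the controls were small, 0.29 with GM-4-53 (adjusted p = 0.208) and 0.26 with paclitaxel (adjusted p = 0.416). RELA, the gene of the transactivating subunit p65, gave log2 signals of 6.68, 6.68 and 6.51 with GM-4-53, 6.18 and 6.28 with paclitaxel, 6.23, 6.12 and 6.17 with GNE-140 and 6.42, 6.36, 6.19 and 6.12 in controls, with a difference of 0.35 for GM-4-53 (adjusted p = 0.174). NFKB2, the gene of p100 and p52 in the non-canonical branch of the pathway, read 4.98, 4.36 and 5.21 with GM-4-53, 4.95 and 4.72 with paclitaxel, 5.64, 5.55 and 5.72 with GNE-140 and 5.11, 5.23, 5.22 and 5.15 in controls. The 3 GNE-140 arrays were above all controls, a difference of 0.46 (adjusted p = 0.224). RELB, the partner of p52, read 3.96, 3.49 and 3.53 with GM-4-53, 3.90 and 3.50 with paclitaxel, 4.35, 4.47 and 4.07 with GNE-140 and 3.63, 3.90, 3.89 and 4.66 in controls. REL ran from 4.40 to 4.81 with GM-4-53, 4.58 to 5.07 with paclitaxel, 4.81 to 4.92 with GNE-140 and 4.33 to 5.07 in controls.

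Among the 3 measured signaling proteins, IKBKE, which encodes an IkB kinase relative that acts in NF-kB and interferon signaling, read 4.18, 4.44 and 4.04 with GM-4-53, 4.51 and 4.80 with paclitaxel, 4.96, 5.07 and 4.78 with GNE-140 and 5.00, 4.96, 5.03 and 4.93 in controls. All 3 GM-4-53 arrays were below all controls, and the gene fell by 0.76 on the log2 scale (SE 0.13, adjusted p = 0.0152). IRAK2, a kinase of the IL1 and Toll-like receptor complex, had log2 signals of 4.72, 4.87 and 4.98 with GM-4-53, 4.54 and 4.49 with paclitaxel, 5.77, 5.86 and 5.73 with GNE-140 and 5.52, 5.48, 5.38 and 4.95 in controls. The paclitaxel arrays lay below and the GNE-140 arrays above all 4 controls. Against the controls the difference was -0.48 with GM-4-53 (adjusted p = 0.143), -0.82 with paclitaxel (SE 0.17, adjusted p = 0.0518) and 0.45 with GNE-140 (adjusted p = 0.164), and the last 2 passed the test after quantile normalization (adjusted p = 0.0169 and 0.0445). TRAF1, an adaptor at TNF receptors, read 3.33, 3.19 and 3.34 with GM-4-53, 3.28 and 3.36 with paclitaxel, 3.51, 3.87 and 3.85 with GNE-140 and 3.18, 3.58, 3.37 and 2.93 in controls.

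ICAM1 had the greatest fall of the 34 genes with GM-4-53. It encodes an adhesion molecule that binds leukocyte integrins and is a classic NF-kB target, with the match shown above. Its log2 signals were 5.82, 5.88 and 5.37 with GM-4-53, 5.97 and 6.07 with paclitaxel, 8.06, 8.02 and 8.14 with GNE-140 and 6.87, 7.04, 8.07 and 7.96 in controls. Every array of GM-4-53 and paclitaxel was below every control, and the GNE-140 arrays lay at the level of control replicates 3 and 4. It fell by 1.80 with GM-4-53 (SE 0.27, adjusted p = 0.00851), a 3.48-fold lower level, and differed by -1.47 with paclitaxel (SE 0.31, adjusted p = 0.058, and 0.0492 after quantile normalization). PTGS2, the gene of the inducible cyclooxygenase COX-2, read 4.38, 4.81 and 4.29 with GM-4-53, 3.63 and 3.86 with paclitaxel, 5.11, 5.18 and 5.30 with GNE-140 and 4.88, 4.99, 6.70 and 6.58 in controls, which were more spread here (SD 0.99, n = 4) than in any other measured gene of the list. Arrays of GM-4-53 and paclitaxel were below all controls, yet the differences of -1.29 (SE 0.40, adjusted p = 0.152) and -2.04 (SE 0.46, adjusted p = 0.0733) did not pass the test. TNFAIP2, a TNF-induced gene, ran from 4.37 to 4.61 with GM-4-53, 4.77 to 4.93 with paclitaxel, 4.52 to 4.78 with GNE-140 and 4.75 to 5.15 in controls. CD83, a surface protein of mature dendritic cells that NF-kB also induces, ran from 3.87 to 4.43, 4.14 to 4.35, 4.22 to 4.47 and 4.19 to 4.78 in that order of groups. VCAM1, an adhesion molecule of endothelium, was below the array median on all 12 arrays.

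Chemokines draw leukocytes to sites of inflammation, and 6 of the 9 on the list lie on chromosome 4. They were low on these arrays, and 0 of 9 were called against the controls with any compound, by limma or by the methods' t-test. At an unadjusted p under 0.05 there were 3 lower under GM-4-53, 1 lower under paclitaxel and 2 higher under GNE-140. Without the share of all features at that threshold, nothing is drawn from these counts. CXCL3, CXCL5, CXCL6, CCL2 and CCL20 lay below the array median on all 12 arrays, with log2 signals from 0.96 to 2.66, and nothing is drawn from their order. CXCL8, the gene of the neutrophil chemoattractant IL8, had the widest range of the chemokines between groups. Its log2 signals were 3.14, 3.25 and 2.83 with GM-4-53, 2.19 and 2.94 with paclitaxel, 4.73, 4.87 and 4.67 with GNE-140 and 3.12, 3.68, 4.19 and 4.32 in controls. The GNE-140 arrays were above and the paclitaxel arrays below all controls, while GM-4-53 overlapped them. The differences were -0.76 with GM-4-53 (SE 0.27, adjusted p = 0.215), -1.26 with paclitaxel (SE 0.31, adjusted p = 0.0949) and 0.92 with GNE-140 (SE 0.27, adjusted p = 0.131). CXCL1, a neutrophil chemokine of the same family, ran from 2.09 to 3.08 with GM-4-53, 2.95 to 3.39 with paclitaxel, 3.16 to 3.71 with GNE-140 and 2.61 to 3.89 in controls, and CXCL2 from 2.67 to 4.03, 3.22 to 3.33, 3.75 to 4.19 and 2.95 to 4.46. CXCL1, CXCL2 and CXCL3 are close copies of each other, so their probes may not be fully separate. CCL5, a chemokine for T cells, ran from 2.65 to 2.97, 2.93 to 3.23, 3.23 to 3.56 and 2.68 to 3.20 in the same order, with the GNE-140 arrays above all controls (difference 0.42, adjusted p = 0.23).

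Of the 4 other secreted proteins, PTX3 was the one above the array median on all arrays. It encodes a long pentraxin of innate immunity that TNF and IL1 induce. Its log2 signals were 4.96, 4.71 and 4.82 with GM-4-53, 4.99 and 4.88 with paclitaxel, 5.94, 6.05 and 5.85 with GNE-140 and 5.91, 5.93, 5.32 and 5.10 in controls. GM-4-53 and paclitaxel arrays were below all controls, with differences of -0.73 (SE 0.20, adjusted p = 0.0899, and 0.0361 after quantile normalization) and -0.63 (SE 0.22, adjusted p = 0.268). IL1A and IL1B, the genes of the IL1 cytokines, were near the array median. IL1B read 2.71, 2.23 and 2.43 with GM-4-53, 2.55 and 2.33 with paclitaxel, 3.00, 3.17 and 2.85 with GNE-140 and 2.97, 2.95, 3.09 and 2.79 in controls, and IL1A read 2.21, 2.32 and 1.88, then 2.02 and 2.03, then 2.88, 2.98 and 2.90, and 2.49, 1.87, 2.80 and 2.48 in controls. For IL1B all 5 arrays of GM-4-53 and paclitaxel were below the controls, at differences of -0.50 (adjusted p = 0.12) and -0.51 (adjusted p = 0.211). TNF ran from 2.45 to 2.62 with GM-4-53, 2.37 to 2.40 with paclitaxel, 2.74 to 2.96 with GNE-140 and 2.56 to 3.01 in controls. Over its 8 features the log2 fold change ran from -0.28 to -0.11, from -0.53 to -0.45 and from -0.21 to 0.04 for the 3 compounds, and none was called.

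**Figure D3:**
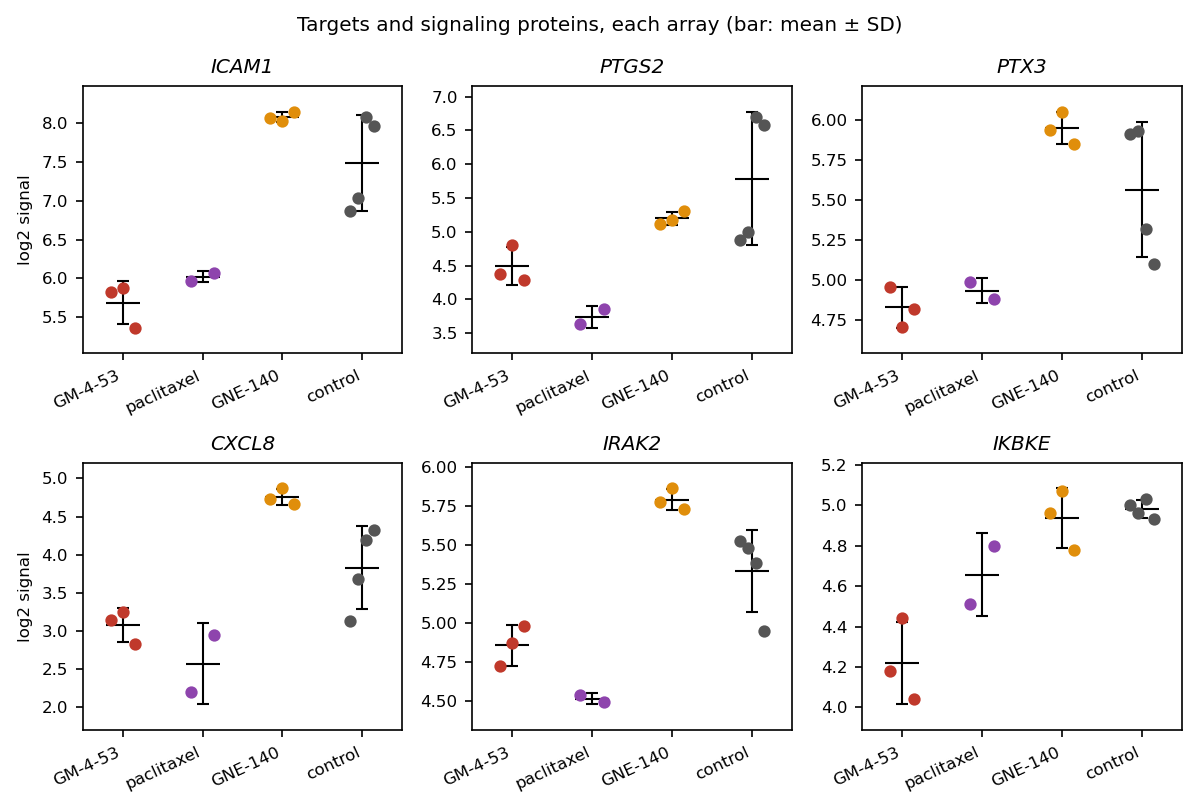
Log2 signal (y axis, each panel with its own range) of ICAM1, PTGS2, PTX3, CXCL8, IRAK2 and IKBKE on each array of GM-4-53, paclitaxel, GNE-140 and untreated controls, with bars for the mean ± SD. ICAM1 reads 5.37 to 5.88 with GM-4-53 and 6.87 to 8.07 in controls, and the controls of ICAM1 and PTGS2 are widely spread.

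How firmly each call against the controls stands depends on single arrays. With GM-4-53, the calls of NFKBIZ and ICAM1 held when any 1 of the 12 arrays was left out. That of NFKBIA was lost without GM-4-53 replicate 2 (adjusted p = 0.0527), that of IKBKE without GM-4-53 replicate 1 or 3 (0.0627 to 0.0689), that of TNFAIP3 without GM-4-53 replicate 1 or 2 or any GNE-140 array (0.052 to 0.108) and that of BCL3 without any array other than control replicate 3 (0.0533 to 0.162). This left 3 calls without GM-4-53 replicate 1 or 2. The ICAM1 controls were split in pairs, 6.87 and 7.04 against 8.07 and 7.96, which leaving out 1 array cannot probe. For each of the 3 compounds, a fit of its own arrays and the controls alone called 0 of the 34 genes, and so did the methods' t-test. The NFKBIZ call of paclitaxel was lost without either paclitaxel array (adjusted p = 0.153 to 0.202), and 4, 3 and 3 genes were called without control replicate 1, 2 or 4. With GNE-140, all 4 calls were lost when any 1 GNE-140 array was left out, NFKBIE at an adjusted p of 0.0527 to 0.093. In addition, the NFKBIA call was lost without control replicate 3 (0.0502 to 0.114 over these arrays), the NFKBIZ call without control replicate 1, 2 or 3 (0.0571 to 0.145) and the TNFAIP3 call without any array but GM-4-53 replicate 3 and control replicate 4 (0.0537 to 0.188). The count was then 2 without control replicate 1 or 2 and 1 without control replicate 3. Under median centring the calls were 0 higher and 4 lower with GM-4-53, in place of 1 and 5, and 1 higher and 1 lower with GNE-140, in place of 3 and 1. A term shared by control replicate 4 and the GNE-140 arrays left 0 calls for GNE-140, where that contrast rests on 1 control array.

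Set side by side, the 8 inhibitors and feedback genes and the secreted targets had similar medians under GM-4-53 and under paclitaxel and differed under GNE-140. That list of 8 includes NFKBIZ and BCL3, nuclear relatives described above that are not plain brakes. They were at -0.70 and -0.92 under GM-4-53 and at -0.83 and -0.48 under paclitaxel. The rest ran from -1.07 (NFKBIA) to 0.68 (TNFAIP3) under GM-4-53 and from -0.88 (NFKBIA) to 0.06 (NFKBIE) under paclitaxel. The similarity may not hold for the brakes alone. The 8 inhibitors and feedback genes had a median log2 fold change of -0.36 under GM-4-53, -0.33 under paclitaxel and 0.35 under GNE-140, the last 0.24 after median centring. For the 13 secreted targets, chemokines included, it was -0.40, -0.36 and 0.11, the last -0.00 after median centring. The secreted targets had low signals, with a median level of 2.19 to 2.98 per array, against 4.75 to 5.58 for the inhibitors. Whether low signal narrowed their changes was not tested. The 5 subunits were at -0.18, -0.04 and 0.08, the last turning to -0.03 after median centring. The median over all features was between 0.00 and 0.01 in each comparison. In single arrays, the inhibitor median stood at -0.33, -0.32 and -0.39 with GM-4-53, -0.23 and -0.42 with paclitaxel, 0.38, 0.41 and 0.25 with GNE-140 and 0.04, 0.15, -0.11 and -0.11 in controls, with no overlap of either side with the controls. For the secreted targets it was -0.22, -0.31 and -0.52 with GM-4-53, -0.37 and -0.38 with paclitaxel, 0.05, 0.18 and 0.12 with GNE-140 and 0.10, -0.27, 0.13 and 0.01 in controls, and here all groups but paclitaxel overlapped the controls. The subunit medians of all 12 arrays lay between -0.12 and 0.13. NFKBIZ, called lower with GNE-140, and TNFAIP3, called higher with GM-4-53, were opposite in sign to the median of their role.

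**Figure D4:**
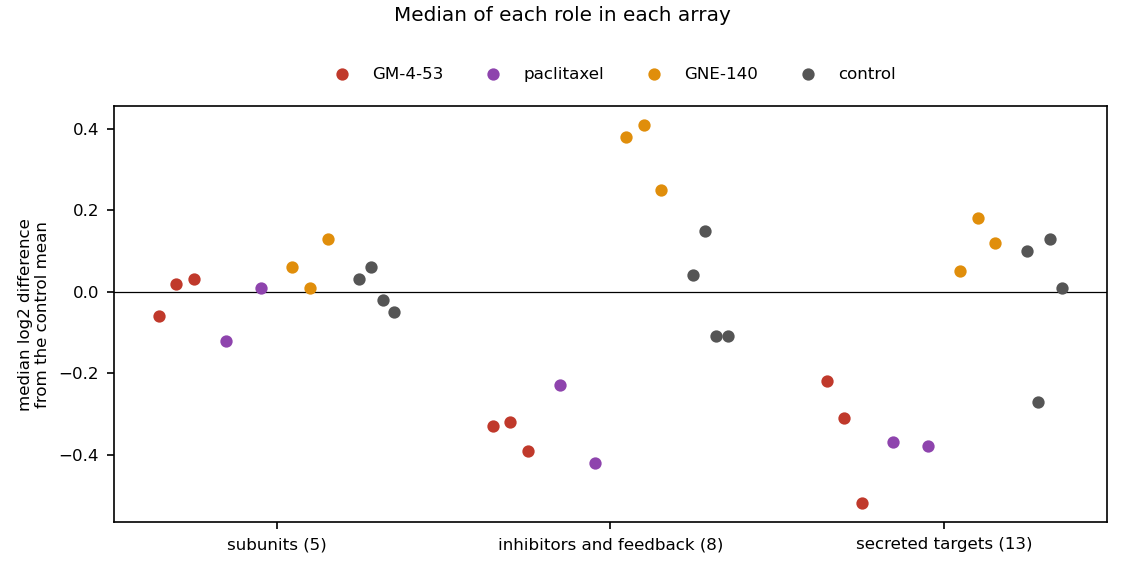
Median log2 difference from the control mean (y axis) over the 5 subunits, 8 inhibitors and feedback genes and 13 secreted targets, 1 point per array, for GM-4-53, paclitaxel, GNE-140 and controls. The inhibitor medians are -0.39 to -0.32 with GM-4-53, 0.25 to 0.41 with GNE-140 and -0.11 to 0.15 in controls.

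Compared directly, 12 of the 34 genes were lower and 1 was higher with GM-4-53 than with GNE-140 at an adjusted p under 0.05, where 4.18% of all features were lower and 5.38% higher. In the direction of lower, these were NFKBIA, NFKBIE, BCL3 and TNIP1 among the inhibitors, IRAK2 and IKBKE among the signaling proteins, CXCL8, PTX3, IL1A and IL1B among the secreted proteins, ICAM1, and the subunit NFKB2. RELA was the one that was higher. The difference was -2.39 for ICAM1 (SE 0.29, adjusted p = 0.000758), a 5.23-fold lower level with GM-4-53, and -2.02 for NFKBIA (SE 0.18, adjusted p = 0.000138), a 4.05-fold lower one. CXCL8 differed by -1.68 (SE 0.29, adjusted p = 0.00519), BCL3 by -1.37 (SE 0.22, adjusted p = 0.00345), PTX3 by -1.11 (SE 0.21, adjusted p = 0.00825) and NFKBIE by -1.07 (SE 0.14, adjusted p = 0.00133). IRAK2 at -0.93 (adjusted p = 0.00457), NFKB2 at -0.79 (adjusted p = 0.0242), IL1A at -0.79 (adjusted p = 0.035), IKBKE at -0.71 (adjusted p = 0.0109), TNIP1 at -0.60 (adjusted p = 0.0145) and IL1B at -0.55 (adjusted p = 0.0442) followed. RELA was 0.45 higher (SE 0.12, adjusted p = 0.0411). For all 13 genes the 3 arrays of one compound lay beyond the 3 of the other, as the values above show. These genes were picked by this same comparison, so that separation is no further evidence. Uncalled genes such as NFKB1, RELB, NFKBIB and TNF were also fully separated. NFKBIZ and TNFAIP3, each moved the same way by both compounds against the controls, differed by -0.12 and 0.04 between them.

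The calls of NFKBIA, NFKBIE, BCL3, IRAK2, CXCL8, PTX3 and ICAM1 held when any 1 array was left out. Those of RELA and IL1A were lost without any single array of a treated group (adjusted p = 0.0534 to 0.141 and 0.0521 to 0.116), that of IL1B without any of 9 arrays, all but GM-4-53 replicate 1 and control replicates 3 and 4 (0.0509 to 0.164), that of NFKB2 without GM-4-53 replicate 2 or any GNE-140 array (0.0504 to 0.0854), that of TNIP1 without GM-4-53 replicate 2 or GNE-140 replicate 1 (0.0528 to 0.0733) and that of IKBKE without GNE-140 replicate 2 (0.0577). The count was 8 without GM-4-53 replicate 2, GNE-140 replicate 1 or GNE-140 replicate 2. The methods' t-test did not call NFKB2, TNIP1, IKBKE or IL1B (adjusted p = 0.141, 0.059, 0.0638 and 0.124). After quantile normalization RELA, IL1A and IL1B were not called by limma (adjusted p = 0.108, 0.0656 and 0.123). IL1B was also lost with limma-trend (adjusted p = 0.0548). Median centring gave 2 higher and 9 lower, and with the term shared by control replicate 4 and the GNE-140 arrays 3 calls remained, NFKBIA, IRAK2 and PTX3, while ICAM1 was at -1.76 (adjusted p = 0.133) and CXCL8 at -1.02 (adjusted p = 0.421).

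Paclitaxel against GNE-140 gave 8 genes, all lower with paclitaxel, where 1.26% of all features were lower and 2.79% higher. Of these 8, CXCL8, NFKBIE and TNIP1 were not called by the methods' t-test (adjusted p = 0.064, 0.0962 and 0.0877). CXCL8 differed by -2.19 (SE 0.32, adjusted p = 0.00402), a 4.56-fold lower level with paclitaxel, ICAM1 by -2.06 (SE 0.32, adjusted p = 0.00571), NFKBIA by -1.83 (SE 0.20, adjusted p = 0.000999) and IRAK2 by -1.27 (SE 0.17, adjusted p = 0.00278). PTX3 at -1.01 (adjusted p = 0.0343), NFKBIE at -0.79 (adjusted p = 0.0197), TNFAIP3 at -0.64 (adjusted p = 0.0454) and TNIP1 at -0.61 (adjusted p = 0.0344) were the others. The calls of NFKBIA and IRAK2 held when any 1 array was left out. That of CXCL8 was lost without paclitaxel replicate 1 (adjusted p = 0.0658), that of ICAM1 without either paclitaxel array (0.0613 to 0.0672), those of NFKBIE, TNIP1 and PTX3 without either paclitaxel array or any GNE-140 array (0.0503 to 0.214), and that of TNFAIP3 without any of 8 arrays (0.0543 to 0.221), all but GM-4-53 replicate 3 and control replicates 2, 3 and 4. There were 2 and 3 calls without paclitaxel replicate 1 or 2, and 4 without any 1 GNE-140 array. After median centring, NFKBIE, TNFAIP3, TNIP1 and PTX3 were not called (adjusted p = 0.0566 to 0.127). With the term shared by control replicate 4 and the GNE-140 arrays, NFKBIA and IRAK2 remained, and CXCL8 was at -1.53 (adjusted p = 0.306), ICAM1 at -1.43 (adjusted p = 0.364) and PTX3 at -1.63 (adjusted p = 0.0871). Both comparisons share the 3 GNE-140 arrays.

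**Figure D5:**
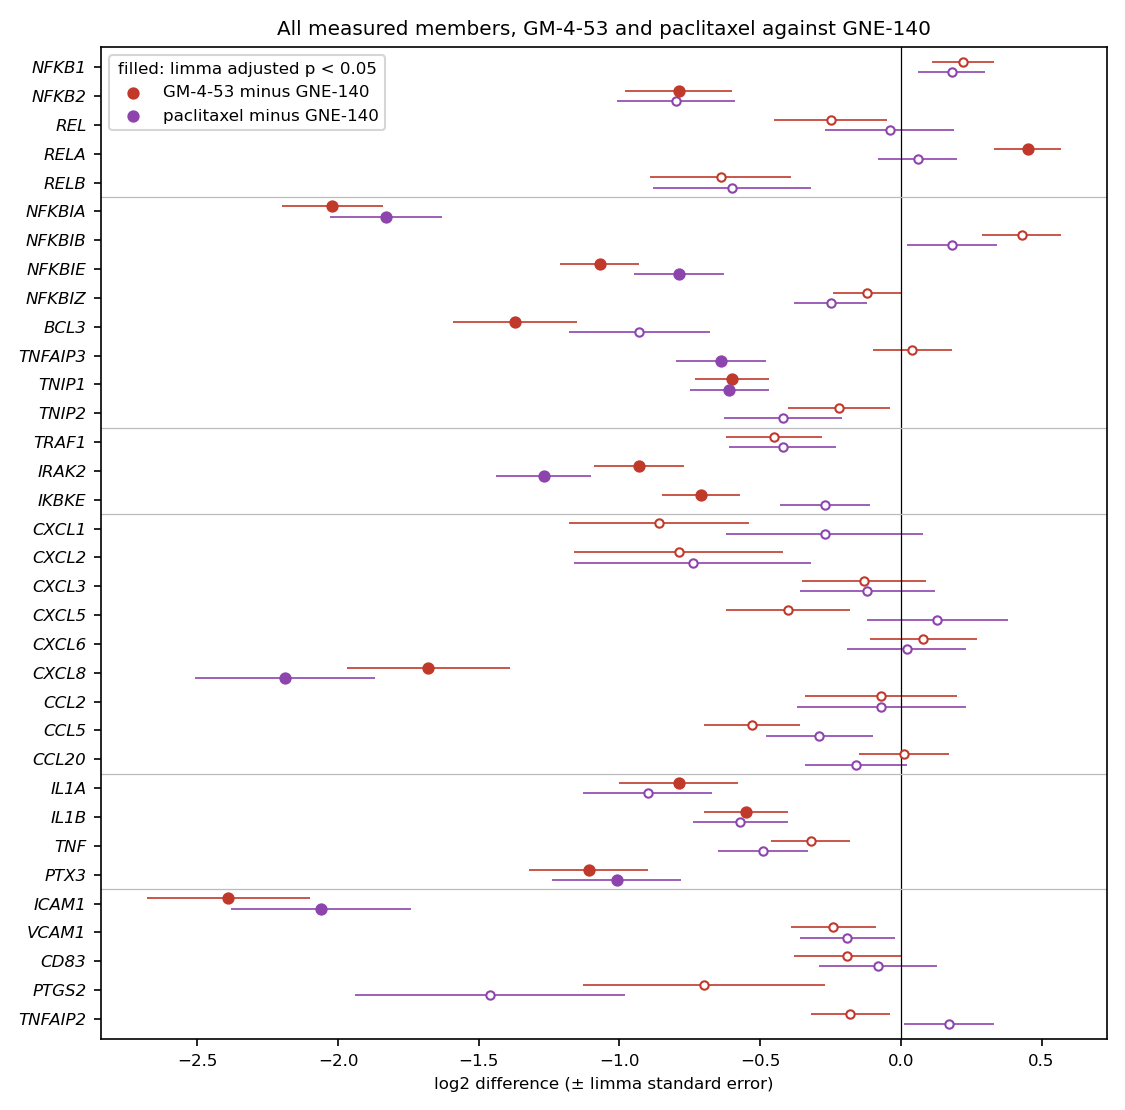
Log2 difference (x axis, point ± limma SE) of GM-4-53 and of paclitaxel from GNE-140 for the 34 measured genes, grouped by role. Filled points passed an adjusted p under 0.05, 13 genes for GM-4-53 (12 lower, RELA higher) and 8 for paclitaxel, all lower.

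Between GM-4-53 and paclitaxel, 0 of the 34 genes differed at an adjusted p under 0.05, as did 0.0131% of all features higher and 0.0112% lower with GM-4-53. At an unadjusted p under 0.05 there were 2 higher and 2 lower, counts from which nothing is drawn, and the methods' t-test called 0. With 3 arrays against 2, this does not show that the drugs act alike. TNFAIP3 had the smallest unadjusted p of the 34 (0.00107), at 5.38, 5.38 and 5.04 with GM-4-53 and 4.58 and 4.59 with paclitaxel, a log2 difference of 0.69 (SE 0.16, adjusted p = 0.279). RELA differed by 0.39 (SE 0.14, adjusted p = 0.573), IKBKE by -0.44 (SE 0.16, adjusted p = 0.596) and TNFAIP2 by -0.35 (SE 0.16, adjusted p = 0.699), and in all 4 genes the arrays of the drugs did not overlap. These 4 were picked by an unadjusted p under 0.05, so that separation is no further evidence.

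Another 64 genes of the pathway were listed by role, of which 57 were measured: 10 receptors, 15 adaptors and ubiquitin enzymes, 10 kinases and 22 further known targets. GM-4-53 raised 1 and lowered 1 against the controls, GNE-140 raised 1 and lowered 2, and paclitaxel changed 0. With 57 genes these counts are near the shares of all features (0.815% higher and 1.02% lower with GM-4-53, 0.414% and 0.843% with GNE-140), so nothing is read from them about the list. MALT1, a scaffold and protease that joins antigen receptors to NF-kB, averaged 7.33 with GM-4-53 and 6.55 in controls (log2 fold change 0.78, adjusted p = 0.0229). TLR3, the receptor for double-stranded RNA, averaged 2.98 with GM-4-53 and 4.24 in controls (log2 fold change -1.26, adjusted p = 0.0353). The 0 of paclitaxel was by limma and by the methods' t-test, with 3 higher and 8 lower at an unadjusted p under 0.05. The share of all features at that threshold is not given, so nothing is drawn from the last counts. With GNE-140, MAP3K8, a kinase that links NF-kB to the ERK pathway, averaged 3.91 with GNE-140 and 3.02 in controls (log2 fold change 0.89, adjusted p = 0.0127), while GADD45B, a stress-response target of NF-kB, averaged 5.19 and 5.86 (-0.67, adjusted p = 0.0342) and BCL2L1, the gene of the survival protein BCL-xL, 7.17 and 7.73 (-0.56, adjusted p = 0.0232). The counts of calls change with single arrays. The share of all features called without the same array is not given, so a change in count may follow the whole array. With GM-4-53 the count of 2 became 0 without GM-4-53 replicate 2 or 3 and 1 without GM-4-53 replicate 1, control replicate 3 or any GNE-140 or paclitaxel array. With GNE-140 the count of 3 became 0 without GNE-140 replicate 2, 1 without GNE-140 replicate 1 or 3 or control replicate 1 or 2, and 11 without control replicate 4.

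Against GNE-140, GM-4-53 had 4 of these 57 genes higher and 8 lower, turning to 6 and 6 after median centring, where 5.38% of all features were higher and 4.18% lower. MALT1 differed by 1.33 (adjusted p = 0.000665) and GADD45B by 1.08 (adjusted p = 0.00128), whereas the early-response gene IER3 was at -1.14 (adjusted p = 0.00318), the ephrin ligand gene EFNA1 at -0.98 (adjusted p = 0.0312), TLR3 at -0.97 (adjusted p = 0.0497) and MAP3K8 at -0.90 (adjusted p = 0.0046). Paclitaxel had 1 higher and 3 lower, beside 2.79% and 1.26% of all features, MALT1 at 1.01 (adjusted p = 0.0098), IER3 at -1.17 (adjusted p = 0.00848), MAP3K8 at -1.09 (adjusted p = 0.00527) and the syndecan gene SDC4 at -0.67 (adjusted p = 0.0238). Between GM-4-53 and paclitaxel 0 of 57 were called by limma or by the methods' t-test, with 5 higher and 3 lower at an unadjusted p under 0.05. Nothing is drawn from the unadjusted counts. The 12 calls between GM-4-53 and GNE-140 became 7 without GM-4-53 replicate 2 or 3 or GNE-140 replicate 2, 6 without GNE-140 replicate 1 and 4 without GNE-140 replicate 3. The 4 between paclitaxel and GNE-140 became 0 and 1 without paclitaxel replicate 1 or 2, and 8 without control replicate 4. Here too a change in count may follow the whole array.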

How the data were processed

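RNA from 12 samples was hybridized to Affymetrix HuGene 2.1 ST arrays. The authors made the signals with Affymetrix Expression Console and deposited them on the log2 scale, from 0.13 to 12.2. No source used here gives its version or settings. The array annotation gave 23866 features 1 symbol, 1852 several and 27899 no name, and 22560 of the first were matched by gene ID to RefSeq, with 0 symbols changed. No value was filtered or transformed. The 4 groups, from the sample labels, were fitted together with limma 3.58.1 (R 4.3.3, lmFit and eBayes, two-sided) in 6 comparisons, with Benjamini-Hochberg adjustment over all 53617 features, no correction across comparisons and no fold limit. A call is an adjusted p under 0.05, and standard errors are moderated. Counts at an unadjusted p under 0.05 stand without the share of all features at that threshold, so nothing is drawn from them. Counts under an alternative or with an array left out also stand without that share, and a change in them may follow the whole array. Genes and lists were chosen with earlier results of these data known.

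Values on every array are given for 19 genes: those called in any comparison, NFKB1, RELA, NFKBIA, TNFAIP3, ICAM1 and CXCL8, and in each role the one with the highest mean and, per compound, with the largest change against the controls. Other pathway genes are named where called, up to 6 a comparison. In sensitivity tests, 12 alternatives and each array left out were tried, and each feature of TNF, an alternative added after seeing the data. The methods' t-test is Student's, run per feature. The fit was tested on simulated data with independent noise on each array. For paclitaxel against controls it recovered 0% of 1.5-fold, 38.8% of 2-fold and 86.4% of 4-fold changes. Between GM-4-53 and paclitaxel it recovered 2.99%, 35.8% and 92.4%. In the other comparisons it recovered 49.3% to 56.7% of 2-fold changes. Few or no calls therefore do not show that a gene was unchanged. Scanned files were not used.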

Additional observations from a re-analysis of the deposited data

Results flagged for a closer look

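NFKBIA, the gene of the main IkB protein, stood out as moving in opposite directions against the same controls, lower with GM-4-53 and higher with GNE-140. The direct difference of GM-4-53 from GNE-140 was -2.02 on the log2 scale (limma adjusted p = 0.000138), with 3 of 3 GM-4-53 arrays below 3 of 3 GNE-140 arrays. The gene was flagged because this comparison and both against the controls were called, so the p-value and the separation are no further evidence. The direct difference kept its call in each of the 24 alternatives, left-out arrays included. The calls against the controls did not. That of GNE-140 was lost without any 1 GNE-140 array or control replicate 3 and after median centring. That of GM-4-53 was lost without GM-4-53 replicate 2. Both were lost by the methods' t-test and with only the groups compared. The 4 controls NFKBIA is set against were themselves split, at 6.85, 6.77, 6.21 and 6.23, a spread between pairs that a check for a single distant array cannot detect.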

How the results depend on the processing

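Of 32 fold changes called, each kept its direction in all alternatives in which it had a value, and 27 lost their call in 1 or more. Of 34 at an unadjusted p under 0.05 that were not called, 17 passed the test in some alternative, and RELB between GM-4-53 and GNE-140 (-0.64, not called) reversed to 0.22 with a term shared by control replicate 4 and the GNE-140 arrays. The cause was not tested.

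The counts in this and the next paragraph come without the share of all features called under the same setting. A change in them may follow the whole array and need not be particular to these genes. Among the 34 genes, GM-4-53 against controls had 6 calls, but 0 by the methods' t-test, 0 with only these groups and 2 with a fold change above 2 as well. Paclitaxel against controls had 1, but 0 with the replicate block, by the t-test, with these groups alone and with the fold limit, 3 over features with 1 symbol and with the array term, 4 with quantile normalization, limma-trend or low values left out, and 5 with array weights. GNE-140 against controls had 4, but 2 with median centring and 0 by the t-test, with these groups alone, the array term or the fold limit. GM-4-53 against GNE-140 had 13, but 3 with the array term and 6 with the fold limit. Paclitaxel against GNE-140 had 8, but 4 with median centring, 15 with these groups alone or array weights, 2 with the array term and 5 with the fold limit. Between GM-4-53 and paclitaxel it was 0 throughout. With 1 array left out, the counts in this order ran from 3 to 7, 0 to 4, 0 to 5, 8 to 15, 2 to 11 and 0 to 0.

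Among the 57 other pathway genes, GM-4-53 against controls had 2, but 5 over features with 1 symbol or with low values left out, 4 with limma-trend, 1 with median centring or the fold limit and 0 by the t-test or with these groups alone. Paclitaxel against controls had 0, but 1 with quantile normalization, array weights or low values left out and 2 with limma-trend. GNE-140 against controls had 3, but 9 with the replicate block or array weights and 0 by the t-test, with these groups alone, the array term or the fold limit. GM-4-53 against GNE-140 had 12, but 1 with the array term and 3 with the fold limit. Paclitaxel against GNE-140 had 4, but 7 over features with 1 symbol, 13 with these groups alone, 17 with array weights, 0 with the array term and 8 with low values left out. With 1 array left out they ran from 0 to 3, 0 to 0, 0 to 11, 4 to 14, 0 to 8 and, for GM-4-53 against paclitaxel, 0 to 0.

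A median against the controls is listed where it shifted by more than the SD of the single-array medians of its treated group. With 2 paclitaxel arrays, at -0.37 and -0.38 for the secreted targets, a trivial shift is listed too. For the subunits, medians shifted with paclitaxel (-0.04) to -0.16 and with GNE-140 (0.08) to 0.18 after quantile normalization. The GNE-140 one shifted to -0.03 after median centring. For the inhibitors with GNE-140 (0.35) the median shifted to 0.24 after centring. For the secreted targets, medians shifted with paclitaxel (-0.36) to -0.35 after quantile normalization and with GNE-140 (0.11) to -0.00 after centring. With 1 array left out, for GM-4-53, paclitaxel and GNE-140 in turn, the medians ran from -0.19 to -0.08, -0.12 to 0.01 and 0.04 to 0.15 for subunits, -0.39 to -0.33, -0.42 to -0.23 and 0.24 to 0.42 for inhibitors and -0.45 to -0.25, -0.41 to -0.25 and 0.06 to 0.22 for secreted targets.

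Arrays with the same replicate number did not deviate together (r from -0.08 to 0.13 over 15 pairs, 1 above 0.1), so the replicate block is no pairing. Low signals come with no detection p-value, which limits what can be said of the chemokines.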
